A study of Homo sapiens with 6 samples.

Results

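Of 68672 genomic regions that carried a 5-methylcytosine (5mC) peak at both glucose levels in A2058 melanoma cells, 2570 also carried a 5-hydroxymethylcytosine (5hmC) peak in high glucose and none in normal glucose. That is 3.74% of them (Wilson 95% interval 3.60 to 3.89), and these are called high-only regions here. They were selected on the presence and absence of 5hmC and 5mC peaks alone: by pooling the peaks of 4 lists on chromosomes 1 to 22 and X, joining peaks that overlapped by at least 1 bp into 319166 union regions, and keeping those with a peak from both 5mC lists and the high-glucose 5hmC list but not from the normal-glucose 5hmC list. A2058 is an established human melanoma line, and every group used here came from A2058 cells made to overexpress wild-type TET2 and grown for 7 days. The 4 groups were 5hmC in high glucose, 5hmC in normal glucose, 5mC in high glucose and 5mC in normal glucose, with 1 library each, obtained by hMeDIP-seq and MeDIP-seq, which sequence DNA fragments caught by an antibody to 5hmC or to 5mC. All groups share the line and the transgene, so none shows cells with TET2 at its own level.

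TET2 is a dioxygenase that oxidises 5mC to 5hmC, a step on the way to loss of DNA methylation. 5hmC can also persist, and it is known to be depleted in melanoma relative to melanocytes. AMPK, a kinase that is active when cellular energy is low, is known to phosphorylate and stabilise TET2, which is the background for comparing glucose levels in these cells. A place with 5mC in both conditions and 5hmC in one of them is a place where the substrate was listed throughout while the product was not. Peaks show enrichment of fragments and not the percentage of cytosines modified.

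With 1 library per group there is no replicate check, and no p-value is given for any difference between glucose levels. Intervals cover counting error only. Each -log10 p and fold enrichment below is the value that the authors' peak list gives for a peak against its own background. The depth came to 28.0 M and 27.5 M reads for 5hmC in high and normal glucose and to 6.14 M and 5.11 M for 5mC, estimated from the background of each list for an assumed genome of 2700 Mb. Where a region held several peaks of a list, the peak with the highest -log10 p stands for it. Most high-only regions were simple: 2407 of 2570, or 93.7% (Wilson 95% interval 92.6 to 94.5), held 1 peak from each of the 3 lists. Together they covered 2.73 Mb on hg19 and took up 2607 peaks, or 1.36%, of the high-glucose 5hmC list, and 2.63% and 2.89% of the high- and normal-glucose 5mC lists.

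The strongest 5hmC among the high-only regions lay at chr21:44057236-44057995, with a 5hmC -log10 p of 33.1 in high glucose, from 47 fragments at the summit where 4.16 were expected. Its 5mC -log10 p was 23.6 in high and 21.0 in normal glucose, and the nearest normal-glucose 5hmC peak was 981 bp away. Strong 5hmC and strong 5mC therefore stood together there, the 5hmC in 1 list only. The region chr16:67769552-67770743 came next, with a 5hmC -log10 p of 24.6 in high glucose and a 5mC -log10 p of 6.47 in high and 7.67 in normal glucose. The third, chr19:36269859-36272160, had a 5hmC -log10 p of 23.9 in high glucose and a 5mC -log10 p of 30.9 in high and 24.1 in normal glucose, and its 5hmC summit lay 1742 bp from the nearest 5mC summit. In that region the marks were thus listed side by side rather than at one point. At chr1:245179482-245180068 the 5hmC -log10 p was 23.9 in high glucose, on the same base as a 5mC summit, and the 5mC -log10 p was 13.1 in high and 6.05 in normal glucose. A region on chromosome 4, chr4:183757566-183758005, had a 5hmC -log10 p of 23.1 in high glucose and a 5mC -log10 p of 10.7 in high and 7.50 in normal glucose.

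The region chr9:117493090-117494330 had a 5hmC -log10 p of 22.3 in high glucose and was the one of the 10 with the largest 5mC difference the other way, with a 5mC -log10 p of 8.17 in high and 11.4 in normal glucose. The others lay at chr18:21598365-21599122, chr1:14038938-14039693, chr2:220335807-220336990 and chr6:16315229-16315878. Over all 10, the summits held 30 to 47 5hmC fragments, the 5mC -log10 p ran from 6.47 to 30.9 in high and from 6.05 to 24.1 in normal glucose, and the nearest normal-glucose 5hmC peak lay 777 to 8921 bp away. The 5mC fold enrichment was higher in high than in normal glucose in 7 of the 10, with a ratio of 0.794 to 1.91. The 5mC fragments at the summit, scaled to the background of each library, went the other way: they were higher in high glucose in 2 of the 10, with a median ratio of 0.834, while the scaled count expected there was lower by over 1% in 9.

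**Figure D1:**
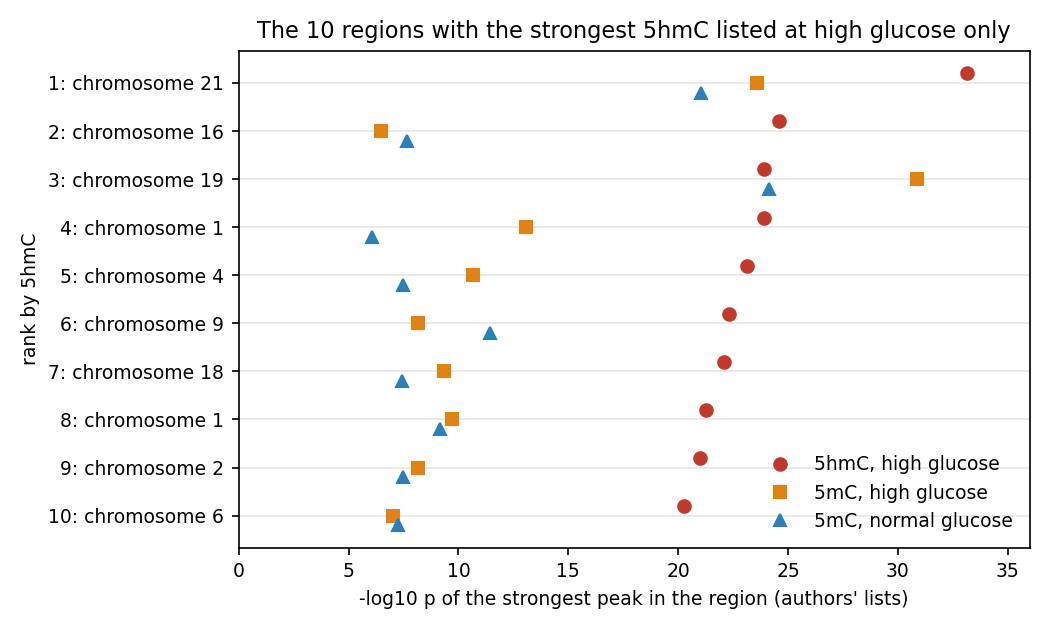
The authors' -log10 p (x axis) of 5hmC in high glucose, 5mC in high glucose and 5mC in normal glucose in the 10 high-only regions with the strongest 5hmC, ranked down the y axis, 1 library per point. 5hmC ran from 20.3 to 33.1, while 5mC was above 20 in 2 of the 10 regions.

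Most high-only regions had far weaker 5hmC than these. Their median 5hmC -log10 p in high glucose was 6.36 (quartiles 4.96 and 8.38), and their median fold enrichment was 3.51. For comparison, 5hmC in the 23635 regions where all 4 lists held a peak had a median -log10 p of 12.2 in high glucose. The 6553 regions with 5mC at both glucose levels and 5hmC in normal glucose only, called normal-only regions, had a median 5hmC -log10 p of 6.15 in their own list. Both one-sided classes were thus weak, which the choice by presence and absence in part fixes. A 5hmC -log10 p of at least 10 was reached by 365 high-only regions, or 14.2% (12.9 to 15.6), where 50.8% of all union regions with high-glucose 5hmC reached it, and 20.7% (20.3 to 21.1) of the 45171 with 5hmC in high glucose alone, whatever their 5mC. In 11 high-only regions it reached 20.

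**Figure D2:**
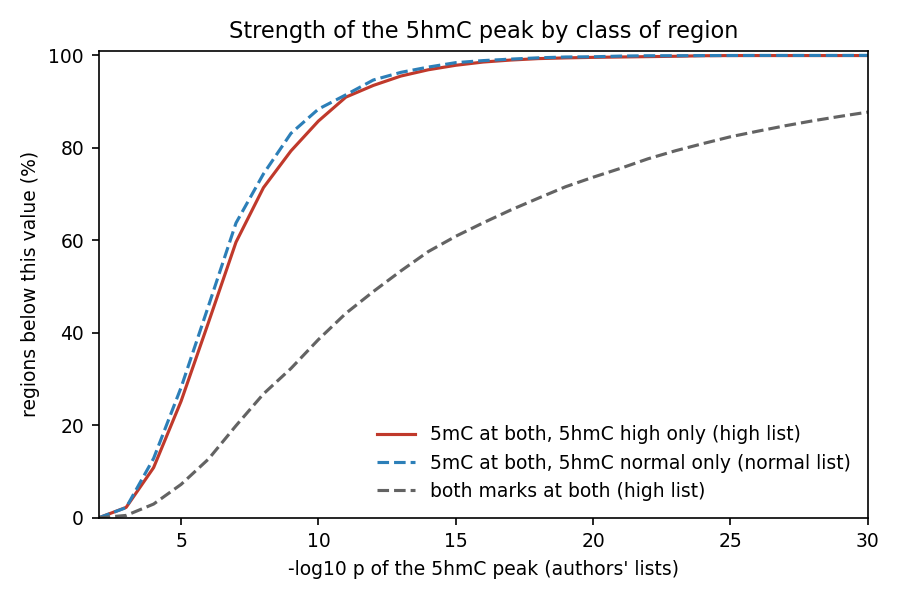
Percent of regions (y axis) whose 5hmC peak lay below a given -log10 p (x axis), for high-only regions in the high-glucose list, normal-only regions in the normal-glucose list and regions listed in all 4 lists in the high-glucose list. The curves of the one-sided classes nearly coincide, with medians of 6.36 and 6.15, and the third lies to their right, with a median of 12.2.

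The summits of high-only regions held a median of 17 5hmC fragments (quartiles 14 and 20, range 9 to 47), in a library whose background was 3.03 fragments. In the normal-glucose 5hmC list, the lowest count at a peak on background was 8 fragments. A place absent from that list can therefore hold fewer fragments than this without being free of 5hmC. Where the expected count was above background, a peak could need more than 8 fragments to be listed. An absent place of that kind can hold 8 or more. At the edge of the rule, 14 high-only regions shared the lowest 5hmC -log10 p, 2.70, from 12 fragments where 5.00 were expected. Of these 14, the first 5 by position lay at chr2:220348370-220350034, chr2:238494282-238494995, chr2:242716451-242717257, chr3:127380597-127381249 and chr7:6553051-6554134. Just outside the rule, 17 regions listed in all 4 lists had a normal-glucose 5hmC -log10 p of 2.68, the lowest in that class. The first 5 of those, among them chr3:11380448-11381538 and chr7:670760-673079, had a -log10 p in high glucose of 2.70 to 10.5.

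Fewer regions were high-only than normal-only, 2570 against 6553, a ratio of 0.392 (Wilson-based 95% interval 0.375 to 0.410). High-only regions made up 9.81% of the 26205 regions with 5mC at both levels and high-glucose 5hmC, while normal-only regions made up 21.7% of the 30188 with normal-glucose 5hmC. Over all union regions, whatever their 5mC, 24.5% of the 184615 with high-glucose 5hmC had none in normal glucose and 31.3% of the 202856 with normal-glucose 5hmC had none in high, which is 45171 against 63412 regions, a ratio of 0.712. These counts come from the rule itself. The lists they rest on held 191314 5hmC peaks in high and 209999 in normal glucose, and the part of that difference in the ratio was not tested. The ratio was closer to 1 for stronger 5hmC: it was 0.351 below a -log10 p of 5, with 648 and 1846 regions, 0.417 from 7 to 10, with 673 and 1614, and 0.530 from 15 to 20, with 44 and 83. When every list was cut at a -log10 p of 10 before regions were joined, it was 0.754, and with equal numbers of top peaks per mark it was 0.651. A given -log10 p is not reached equally often in both lists. The value of 10 was reached by 50.8% of union regions with high-glucose 5hmC and by 41.2% of those with normal-glucose 5hmC. Among union regions with 5hmC at 1 level only, whatever their 5mC, 9355 in high and 7423 in normal glucose reached it. Of these, 365 were high-only and 761 normal-only regions.

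Peaks were joined by overlap, so contact between the 5hmC and 5mC peaks of a high-only region follows from the rule. Its 5hmC summit lay inside the strongest 5mC peak of both lists in 1692 of 2570 regions, or 65.8% (64.0 to 67.6). It lay inside at least one of them in 80.7% (79.1 to 82.1). These shares were 67.0% and 81.8% in normal-only regions, and 61.4% and 74.6% in regions listed in all 4 lists. The median distance from the 5hmC summit to the nearer of both 5mC summits was 150 bp (quartiles 48 and 352) in high-only regions. It was 211 bp in regions listed in all 4 lists and 141 bp in normal-only regions. The 5hmC peaks of high-only regions were narrower than the 5mC peaks they met. Their median was 395 bp, against 645 bp for high-glucose and 616 bp for normal-glucose 5mC. The 5mC summits of the high- and normal-glucose lists themselves lay a median of 48 bp apart in high-only regions and 49 bp over all 68672 regions, so their positions differed by much less than a fragment length, 324 bp. Whole high-only regions had a median width of 904 bp, close to the 930 bp of normal-only regions and between the 1454 bp of regions in all 4 lists and the 586 bp of regions with 5mC and no 5hmC.

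**Figure D3:**
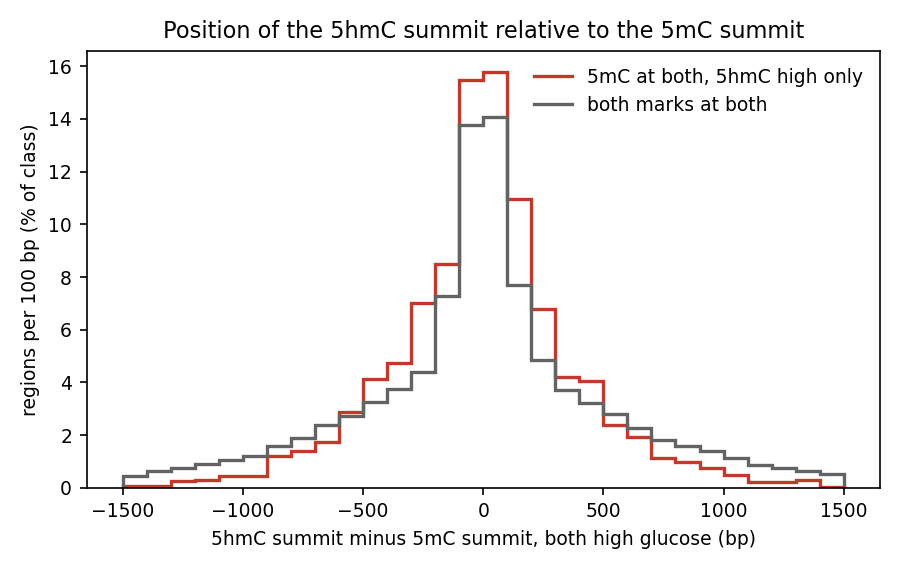
Distance in bp from the high-glucose 5mC summit to the high-glucose 5hmC summit (x axis, steps of 100 bp), as a percentage of each class (y axis), for high-only regions and regions listed in all 4 lists. Both peak at 0, with 31.6% of high-only regions and 27.9% of the others within 100 bp; 25 high-only regions and 1587 of the others lay beyond 1500 bp and are not drawn.

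High-only regions were of middling 5mC strength. The median 5mC -log10 p was 15.6 in high and 13.6 in normal glucose. In normal-only regions it was 15.6 and 14.3, in regions listed in all 4 lists 20.5 and 18.4, and in regions with no 5hmC 11.8 and 10.4. High-only regions were found at every level of 5mC. With all 68672 regions in 5 groups by the lower of their 5mC -log10 p values, the high-only share was 3.57% in the weakest group (3.26 to 3.90), 4.27% in the fourth (3.95 to 4.62) and 3.95% in the strongest (3.64 to 4.29). The share listed in all 4 lists covered a much wider span, with 23.2% in the weakest and 57.9% in the strongest group.

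The strongest 5mC with 5hmC in high glucose alone lay at chr19:46996130-46999508, a region of 3379 bp. There, 5mC had a fold enrichment of 67.3 in high and 63.0 in normal glucose, from 130 and 106 fragments, and 5hmC a -log10 p of 9.76. The second, chr19:33695277-33698272, had a 5mC fold of 59.2 in high and 56.0 in normal glucose, with 5hmC at a -log10 p of 3.16, near the limit of the list. At chr4:30723755-30725177 the 5mC fold was 65.0 in high and 56.8 in normal glucose, the 5hmC -log10 p was 4.24, and the nearest normal-glucose 5hmC peak lay 34088 bp away. In these 3 regions the 5hmC was above the high-only median of 6.36 in the first and below it in the others. Another, chr7:1137546-1144320, spanned 6775 bp, one of 37 high-only regions (1.44%) of 3 kb or more. That width was reached by 4.88% of all 68672 regions, 2.01% of normal-only regions, 12.9% of regions in all 4 lists and 0.35% of regions with no 5hmC. The remaining 6 of the 10 high-only regions with the strongest 5mC lay at chr20:60553550-60556098, chr5:92923095-92924883, chr10:105217567-105218677, chr7:65969426-65971663, chr19:7621300-7623161 and chr3:49026721-49028960. Over these 10 the median 5hmC -log10 p was 5.34, and the highest, 14.1, was that of the region on chromosome 3.

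5mC was listed at both glucose levels by the rule, and its fold enrichment in high-only regions was slightly higher in high glucose. The median ratio, high over normal, was 1.09 (0.13 on the log2 scale, quartiles -0.16 and 0.43). It was 1.02 in normal-only regions, 1.05 in regions listed in all 4 lists and 1.05 over all 68672 regions. The 5mC fold was at least 1.5 times higher in high glucose in 391 high-only regions, or 15.2% (13.9 to 16.7), where 11.6% of all 68672 regions passed that limit. It was at least 1.5 times lower in 156, or 6.07% (5.21 to 7.06), where 7.3% of all did. In normal-only regions the shares were 9.78% and 9.23%.

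The fold of a peak combines the fragments at its summit with the count expected there, so each was set against the background of its library and compared on its own. The 5mC fragments did not show the excess: their scaled ratio, high over normal, had a median of 0.949 in high-only regions, 0.973 in normal-only regions and 0.962 over all. Scaled fragments were at least 1.5 times higher in high glucose in 6.46% of high-only regions, where 7.18% of all were, and at least 1.5 times lower in 11.5%, where 10.5% of all were. The expected count did differ between the classes. It was at least 1.5 times lower in high glucose in 381 high-only regions, or 14.8% (13.5 to 16.3), where 6.55% of all regions were, and at least 1.5 times higher in 72, or 2.8% (2.23 to 3.51), where 7.27% of all were. In normal-only regions the shares ran the other way, 4.30% lower and 13.7% higher. An expected count also enters the -log10 p by which 5hmC peaks were listed. This difference between classes cannot be taken as independent of the rule.

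**Figure D4:**
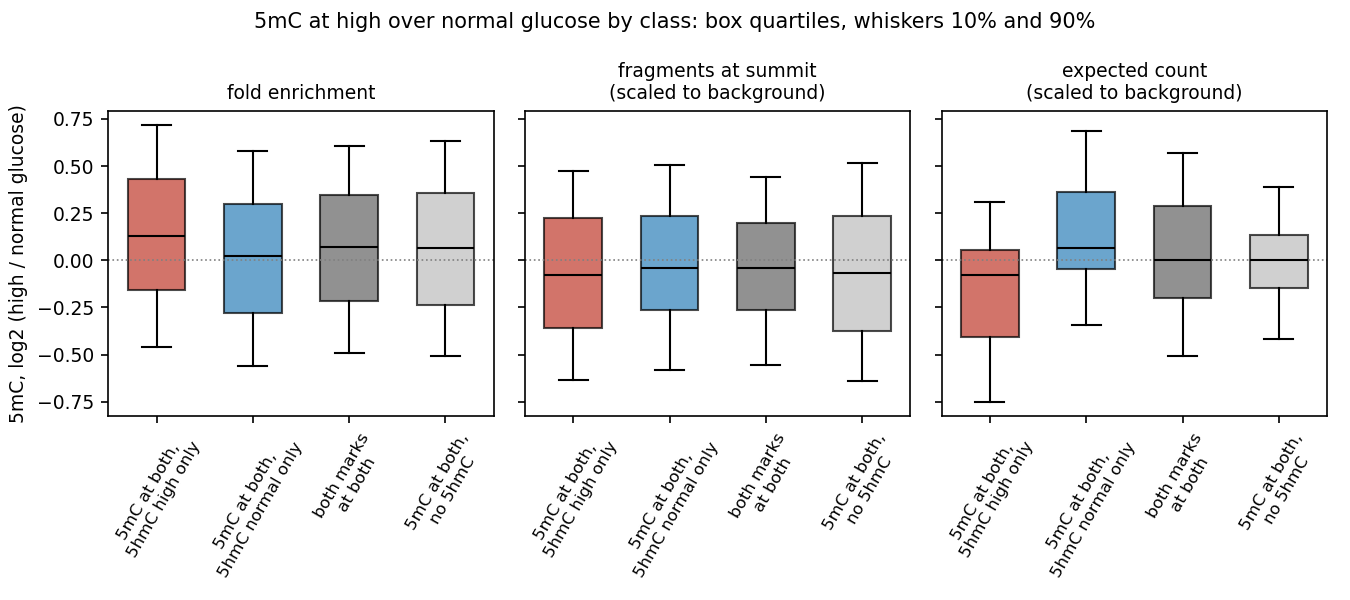
Log2 ratio of 5mC in high over normal glucose (y axis) for fold enrichment, scaled fragments and scaled expected count, in 4 classes of region; boxes give quartiles and the median, whiskers the 10% and 90% points over regions. High-only regions have a median of 0.13 for fold, -0.08 for fragments and -0.08 for the expected count, and normal-only regions 0.02, -0.04 and 0.07.

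The expected count moved with the class itself. Relative to the background of the library, it was a median of 1.24 times in high and 1.41 times in normal glucose at the 5mC peaks of high-only regions, and 1.36 and 1.20 times at those of normal-only regions. It was lower in high glucose by over 1% in 1444 high-only regions, or 56.2% (54.3 to 58.1), where 38% of all 68672 regions were, and higher by over 1% in 718, or 27.9%, where 41.7% of all were. Read the other way, 8.47% (7.69 to 9.32) of the 4500 regions with an expected count at least 1.5 times lower in high glucose were high-only and 6.27% normal-only, a ratio of 1.35. Among the 4991 with an expected count at least 1.5 times higher, 1.44% (1.15 to 1.81) were high-only and 17.97% normal-only, a ratio of 0.0803. Among the 13925 regions where the scaled expected counts were equal within 1%, 2.93% (2.66 to 3.22) were high-only and 7.76% normal-only, a ratio of 0.378, close to the 0.392 over all regions. At the 5hmC peaks themselves, the expected count was a median of 1.23 times background in high-only regions, in high glucose. In normal-only regions it was 1.21 times, in normal glucose. Both values were near those at the 5mC peaks of the same glucose level. Whether the expected count has a part in which class a region fell into was not tested.

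Of the 365 high-only regions with a 5hmC -log10 p of at least 10, 217 had an expected count lower in high glucose by over 1%. In 148 the expected count was equal or higher in high glucose. Among all 2570 high-only regions it was lower by over 1% in 1444, or 56.2%, and over all 68672 regions in 38%. In 9 of the 10 strongest it was lower by over 1%. These 10 were ranked by 5hmC -log10 p, which itself rests on an expected count. At the strongest region, on chromosome 21, the 5mC peaks held 23 fragments in high and 25 in normal glucose, while 1.06 and 1.75 were expected. For high-only regions with equal expected counts, the median log2 ratio of the 5mC fold was 0.09, the same as in normal-only regions with equal expected counts, 0.09. It was 0.25 and 0.20 where the expected count was lower in high glucose and -0.06 and -0.11 where it was higher.

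**Figure D5:**
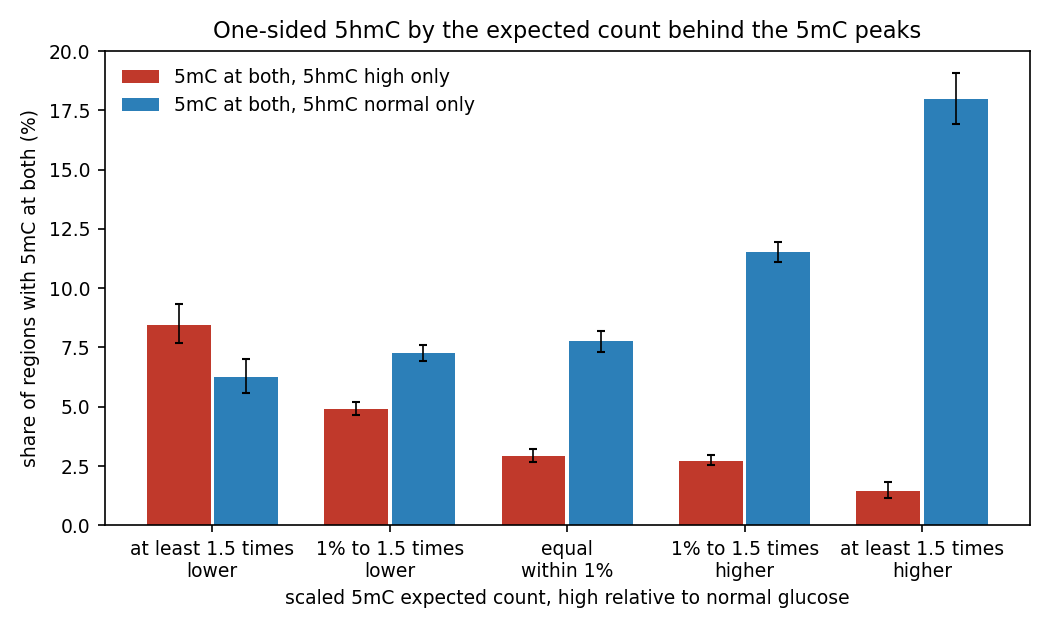
Share of regions with 5mC at both glucose levels (y axis, %) that were high-only or normal-only, by the scaled 5mC expected count in high relative to normal glucose (x axis); bars carry Wilson 95% intervals over regions. The high-only share ran from 8.47% in the leftmost group to 1.44% in the rightmost, and the normal-only share from 6.27% to 17.97%.

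Some high-only regions with a 5hmC -log10 p of at least 10 had large 5mC differences. By fold the largest excess in high glucose was at chr17:9145287-9146231, with a 5mC fold of 16.5 in high and 4.37 in normal glucose, from 30 and 11 fragments. Its fold ratio of 3.78 combined a scaled fragment ratio of 2.27 with a scaled expected count ratio of 0.418. At chr9:77467128-77467664 the fold was 16.7 in high and 5.57 in normal glucose, from 28 and 8 fragments, with scaled expected counts equal within 1%. Its scaled fragment ratio, 2.92, was the highest of the 5, so the order by fold is not the order by fragments. The other 3 were chr9:96320673-96321263, chr20:52536424-52537027 and chr16:88377598-88378957, and the fold ratios of the 5 ran from 2.88 to 3.78. Their scaled fragment ratios were smaller, at 1.92 to 2.92, and in 4 of the 5 the scaled expected count was lower in high glucose, with ratios of 0.413 to 0.626.

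Among the same regions with a 5hmC -log10 p of at least 10, the 5mC fold was lowest in high relative to normal glucose at chr11:1140109-1140822, with a fold of 4.71 in high and 10.5 in normal glucose, from 8 and 16 fragments; a normal-glucose 5hmC peak lay 438 bp away. At chr3:49738810-49739570 it was 5.98 in high and 11.9 in normal glucose, from 11 and 21 fragments, and the scaled expected counts were in a ratio of 0.986. The region chr6:170564706-170565188 had a fold of 5.18 in high and 9.91 in normal glucose, from 8 and 15 fragments, with scaled expected counts equal within 1%. In these 3 the scaled fragments were also fewer in high glucose, with ratios of 0.417 to 0.445. At the first of them, on chromosome 11, the scaled expected count was 1.24 times as high in high glucose. The remaining 2, chr8:142113516-142114792 and chr1:11190533-11191516, had scaled expected counts 1.61 and 1.98 times as high in high as in normal glucose. Their scaled fragments were fewer in high glucose as well, with ratios of 0.556 and 0.690.

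High-only regions were spread over all 23 chromosomes and were fewer than normal-only regions on each. Their share of the regions with 5mC at both levels was lowest on chromosome 3, at 3.06% (2.52 to 3.72), and highest on chromosome 22, at 4.28% (3.48 to 5.27). On 22 of 23 chromosomes the interval held the overall share of 3.74%, the exception being chromosome 3. The ratio of high-only to normal-only regions was lowest on chromosome 21, at 0.3, with 39 and 130 regions, and highest on chromosome 4, at 0.510, with 100 and 196. The intervals of chromosomes 3 and 22, the ends of the order by share, still overlapped.

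Within chromosomes, high-only regions were most numerous where 5mC was dense, which the rule in part fixes by asking for 5mC in both lists. They fell in 1121 of 2875 windows of 1 Mb, and 133 windows with 5 or more held 871 of them. With the windows in 5 equal groups by their 5mC cover, the poorest group held 11 high-only and 25 normal-only regions and the richest 1725 and 4680. The poorest group held 672 regions with 5mC at both levels and the richest 43128. The high-only share of these was 1.64% (0.916 to 2.91) in the poorest group and 4.00% (3.82 to 4.19) in the richest. The rise was shared: normal-only regions went from 3.72% to 10.9% and regions in all 4 lists from 11.8% to 41.8%. The ratio of high-only to normal-only regions was 0.440 and 0.369. On autosomes, 26.7% (25 to 28.4) of high-only regions lay within 5 Mb of the outermost listed peak of the chromosome. Of all autosomal regions with 5mC at both levels, 23.7% did. The share was 29.1% for normal-only regions, 30.4% for regions in all 4 lists and 17.99% for regions with no 5hmC.

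The windows with the most high-only regions were chr17:80000001-81000000, with 16 among 235 regions with 5mC at both levels, chr11:1-1000000, with 12 among 182, and chr16:88000001-89000000, with 11 among 203. Normal-only regions were more numerous in each, at 25, 22 and 20. The 5 windows with the largest deficit of 5hmC cover in high glucose held 33 high-only and 123 normal-only regions. They held 941 regions with 5mC at both levels. The 5 with the largest excess held 0 and 3, among 22 regions with 5mC at both levels. Windows of both kinds were picked by 5hmC cover in the lists that define the classes. The balance of high-only and normal-only regions in them is therefore not independent of that choice.

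Among regions with 5mC at both levels taken in order along the chromosomes, 2339 high-only regions had no high-only region next to them, 105 runs held 2 and 7 runs held 3, where high-only regions were 3.74% of those in the order. The tightest runs of 3 were chr16:2495006-2500016, over 5011 bp with a 5hmC -log10 p of 3.40 to 7.10, chr4:644954-651322, with 7.62 to 14.4, and chr17:37068461-37075771, with 10.2 to 13.0. The last was the one of the 3 where every 5hmC peak was above 10. The nearest other high-only region lay a median of 116747 bp away, and 9.96% had one within 10 kb. A normal-only region lay within 10 kb of 22.5% of them. Normal-only regions were also the more numerous class, at 6553 against 2570, so these 2 shares are not a like comparison.

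The 5hmC peak of a high-only region lay a median of 1942 bp (quartiles 1004 and 4322) from the nearest normal-glucose 5hmC peak, and 639 of 2570, or 24.9% (23.2 to 26.6), lay within 1 kb of one. That share depended on the settings: it was 11.7% with every list limited to a -log10 p of 10 or more, 9.92% with peaks up to 500 bp apart joined and 47.9% with an overlap of 50%. In 1 region the peaks abutted with 0 bp between them. For normal-only regions and high-glucose 5hmC the share within 1 kb was 21.9% (20.9 to 22.9), and for all 45171 union regions with 5hmC in high glucose alone, whether or not they carried 5mC, it was 18.9% (18.6 to 19.3). At the other end, 220 high-only regions, or 8.56% (7.54 to 9.70), had no normal-glucose 5hmC peak within 10 kb.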

How the data were processed

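hMeDIP-seq and MeDIP-seq peak lists of 4 libraries were used, 1 list per library as the authors deposited them; the input samples, 1 per glucose level, were not analysed here. Groups follow the sample titles (high or normal glucose); peak names inside the lists read Ctrl in the high-glucose and Low in the normal-glucose lists. Per the submitters' processing notes the build is hg19 and the tools include CASAVA 1.8.2, Bowtie 1.0.0, SAMtools 0.1.18 and bedtools 2.17.0. No source used here gives the peak caller, its control or its handling of duplicates. Each deposited row holds a score (not used), a fold enrichment (a ratio), -log10 of the p-value and of the q-value, and a summit position. The highest q-value was 0.0498. Rows on other chromosomes than 1 to 22 and X were left out (80 and 82 of 5hmC, 14 and 15 of 5mC, in high and normal glucose). Coordinates are printed 1-based.

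Union regions were built in Python 3.11.15 with NumPy 2.4.6 and pandas 2.3.3, and bedtools 2.31.1 merged the same 319166. The fold of every peak equalled (fragments + 1)/(expected + 1), with the p-value the Poisson probability of more fragments, for a whole number of fragments within 1% of the step to the next. The lowest expected count of a list, 3.03 and 2.64 for 5hmC and 0.737 and 0.615 for 5mC in high and normal glucose, was read as its background. Scaled fragments and scaled expected counts are divided by it. Reads are background times 2700 Mb over the shortest peak width (292, 259, 324 and 325 bp), taken as the fragment length. On simulated data the search recovered 100% of 5000 peaks for each mark. Wilson intervals are from SciPy 1.17.1 and figures from Matplotlib 3.10.9. The intervals cover counting error over regions only, since each group holds 1 library. No molecular identifiers mark single molecules.

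The high-only regions and the classes beside them were chosen with earlier results of these data known. Named regions are the 10 with the highest 5hmC -log10 p, the 10 with the highest value of the lower 5mC -log10 p, the 5 largest and 5 smallest 5mC fold ratios among those with a 5hmC -log10 p of at least 10, the 5 with the lowest 5hmC -log10 p, the 3 windows with the most high-only regions and the 3 longest runs, ties of runs by span. Genes and sequence were not analysed here. Alternatives were stricter -log10 p and -log10 q limits, autosomes only, joining within 500 bp and an overlap of 50%; the last asks that the 5hmC peak lie by 50% in a peak of each 5mC list with no normal-glucose 5hmC peak overlapping it by 50%.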

Additional observations from a re-analysis of the deposited data

How the results depend on the processing

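The number of high-only regions stayed within 1.5 times of 2570 under all alternatives but one, from 1936 to 3325; 5hmC peaks with a -log10 p that reached 10, set against the full lists, left 365, or 0.532% of regions with 5mC at both levels, with a ratio to normal-only regions of 0.480, a median log2 ratio of 5mC fold of 0.16, 22.2% within 1 kb of normal-glucose 5hmC and a median summit distance of 130 bp. The ratio stayed below 1 throughout: it was 0.478 with every list limited to a -log10 p of 5 or more, 0.754 with 10 or more, 0.429 with a -log10 q of 2 or more, 0.420 with peaks up to 500 bp apart joined, 0.430 with 50% overlap and 0.651 with equal numbers of top peaks. The last of these and the first alternative were chosen after seeing the data. The share of regions with 5mC at both levels was 4.27%, 5.17%, 3.99% and 4.18% in the first 4 of these and 5.02% with equal numbers. The share within 1 kb of normal-glucose 5hmC was 22.3% with a limit of 5, 11.7% with 10, 9.92% with joining, which removes near neighbours by its construction, and 47.9% with 50% overlap, which allows small overlaps with normal-glucose peaks. The median summit distance was 186 bp with a limit of 10, 267 bp with joining, 133.5 bp with 50% overlap and 164 bp with equal numbers. The median log2 ratio of 5mC fold stayed above 0 throughout. With 50% overlap 2558 regions qualified, of which 1724 were among the 2570. Stricter limits leave a region high-only where its normal-glucose peak falls below them, so they do not single out firmer members. The 5mC libraries were the shallower ones, at 6.14 M and 5.11 M reads, which limits the 5mC ratios of single regions: 8 against 16 fragments is among the larger differences named. No paired analysis was possible because each group holds 1 library and no result comes from a test.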
